A study of Rattus norvegicus with 15 samples.

Results

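The aryl hydrocarbon receptor gene Ahr and the 3 cytochrome P450 genes that it controls, Cyp1a1, Cyp1a2 and Cyp1b1, were followed in primary rat hepatocytes exposed to flutamide, a nonsteroidal antiandrogen. The 4 genes were taken by symbol from the platform annotation, each had 1 probe set, and they are 4 of the 14506 genes tested. Freshly isolated hepatocytes were seeded on collagen in microfluidic biochips, left to attach for 24 h, and then perfused for 24 h with medium holding the solvent DMSO (5 arrays), 10 µM flutamide (6 arrays) or 100 µM flutamide (4 arrays), with 1 Affymetrix rat gene array per biochip. The strain, sex and age of the animals are not given in the labels used here, nor is it said whether biochips hold cells of separate animals, so the spread behind each p-value may be technical. The titles number the biochips 10 to 16 and 20 to 27, called number runs 1 and 2 below. Run 1 holds 2 DMSO, 3 10 µM and 2 100 µM arrays and run 2 holds 3, 3 and 2, and the labels do not say what the runs stand for.

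AhR is a ligand-activated transcription factor that waits in the cytoplasm bound to Hsp90 chaperones. Once a ligand binds, it moves to the nucleus, pairs with Arnt and switches on genes that carry its response element, above all Cyp1a1, which in hepatocytes is the classical sign of an activated receptor. Cyp1a2 is made in liver without an added inducer, oxidises aromatic amines and is, in human liver, the main enzyme that hydroxylates flutamide, which has itself been described as an AhR ligand. Cyp1b1 is the third enzyme of the family and is known mainly from tissues outside the liver and from stromal cells. The comparisons ask whether the receptor and its targets shifted with dose.

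AhR acts through response elements in the upstream regions of the CYP1 genes, and the promoters of Cyp1b1 and Cyp1a2 are shown because they differ in the core of its response element, GCGTG, read on either strand. Both windows run 5′ to 3′ over 250 bases before and 50 after the start site (RefSeq, build GRCr8), in lower case with each match in capitals. The Cyp1b1 window is chr6:21094315-21094614 on the + strand and that of Cyp1a2 is chr8:66978100-66978399 on the - strand.
Cyp1b1: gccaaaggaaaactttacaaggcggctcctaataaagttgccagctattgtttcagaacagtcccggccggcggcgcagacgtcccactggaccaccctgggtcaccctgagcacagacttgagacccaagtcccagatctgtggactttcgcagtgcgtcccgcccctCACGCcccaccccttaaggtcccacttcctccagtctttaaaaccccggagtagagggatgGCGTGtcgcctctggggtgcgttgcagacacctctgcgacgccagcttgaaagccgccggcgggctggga
Cyp1a2: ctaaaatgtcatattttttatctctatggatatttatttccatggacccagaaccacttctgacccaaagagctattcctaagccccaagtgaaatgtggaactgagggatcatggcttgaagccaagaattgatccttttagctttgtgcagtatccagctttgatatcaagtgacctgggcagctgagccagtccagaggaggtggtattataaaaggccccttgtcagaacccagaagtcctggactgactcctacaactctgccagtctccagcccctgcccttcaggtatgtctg
The Cyp1b1 window holds 2 matches, CACGC starting 81 bases and GCGTG starting 20 bases before the start site, which do not overlap. The start site is the one the RefSeq promoter table uses, and for Cyp1b1 the gene as annotated in the same build begins farther upstream. The Cyp1a2 window holds 0, and so does the same window of Ahr. Of 33469 rat promoter windows of this length, 29.7% hold at least 1 match, as do 40.6% of the 12536 of genes tested here and 10 of the 17 (58.8%) of measured AhR battery genes. A match describes letters only, and these windows leave out enhancers farther from the start. Cyp1a1 and Cyp1a2 are neighbours on rat chromosome 8, with 0 protein-coding genes between them.

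Cyp1a1, the inducible enzyme, was already bright in the solvent controls and did not pass the test at either dose. On the log2 scale of the deposited values it stood at 11.05, 10.66, 11.16, 11.03 and 11.19 in DMSO arrays 10, 11, 20, 21 and 22. At 10 µM it stood at 10.73, 10.92, 11.33, 8.81, 11.01 and 11.47 in arrays 12, 13, 14, 23, 24 and 25. At 100 µM it stood at 10.16, 11.11, 11.44 and 11.05 in arrays 15, 16, 26 and 27. The groups overlapped: apart from array 23, far below the rest, and array 15, the treated arrays lay at or around the DMSO range, with 3 of 6 arrays at 10 µM and 2 of 4 at 100 µM inside it. The mean was 11.02 ± 0.21 in DMSO (SD, n = 5), 10.71 ± 0.97 at 10 µM (SD, n = 6) and 10.94 ± 0.55 at 100 µM (SD, n = 4). In bulk samples such as these, fewer cells of a type and less RNA per cell cannot be told apart.

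The log2 difference of Cyp1a1 was -0.30 at 10 µM (SE 0.39) and -0.07 at 100 µM (SE 0.44), with limma adjusted p = 0.925 and 0.982 over all genes. The 95% interval of the ratio to DMSO ran from 0.452-fold to 1.45-fold at 10 µM and from 0.497-fold to 1.81-fold at 100 µM. A p that misses the threshold does not show equal levels, but a rise of Cyp1a1 beyond those upper bounds lies outside these intervals. At 10 µM, 0 of the 4 genes passed at an adjusted p under 0.05, as did 0% of all genes, and at 100 µM again 0 of 4 and 0%. At an unadjusted p under 0.05 the limma fit held 0 of the 4 at 10 µM, where 7.65% of all genes did so, and 1 of the 4, Ahr, at 100 µM, where 6.85% did. The 2 low arrays set the sign. Without 10 µM array 23 the difference at 10 µM was 0.15 (0.843-fold to 1.46-fold), and without 100 µM array 15 the difference at 100 µM was 0.19 (0.579-fold to 2.25-fold). Without the 3 arrays of lowest quality weight (10 µM arrays 23 and 24 and 100 µM array 15, chosen after seeing the data), it was 0.20 at 10 µM and 0.16 at 100 µM, with upper bounds of 1.42-fold and 1.40-fold.

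**Figure D1:**
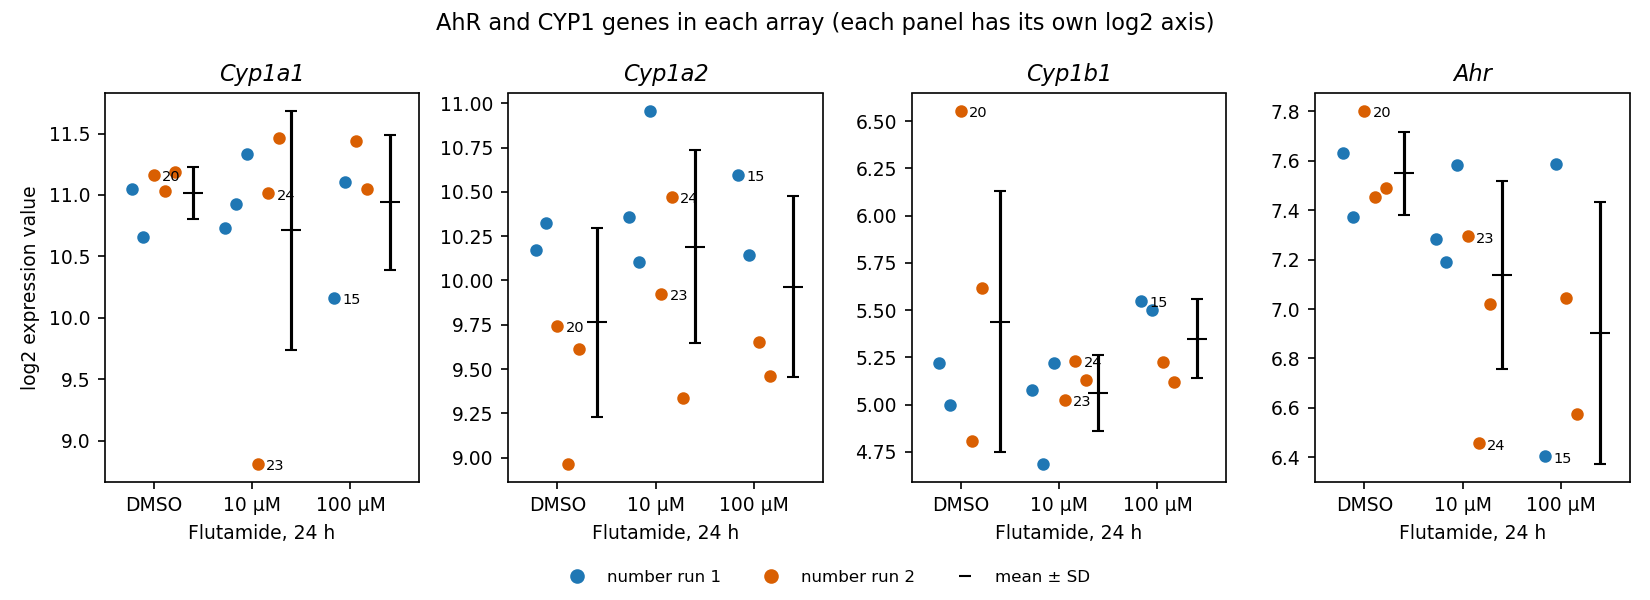
Log2 expression value (y axis, its own scale in each panel) of Cyp1a1, Cyp1a2, Cyp1b1 and Ahr in each array by flutamide group (x axis). Points are arrays, coloured by number run, bars are the mean ± SD of each group, and biochips 15, 20, 23 and 24 are numbered. Cyp1a1 is at 8.81 in array 23, and Ahr is below every DMSO array in 5 of 6 arrays at 10 µM and 3 of 4 at 100 µM.

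Array 23 differed from the other arrays in more than Cyp1a1. Its median correlation with the other arrays over all probe sets was 0.967, against 0.971 to 0.987 for the rest. The mean level of 14 Kupffer cell and macrophage markers, which include Cd163, Clec4f, Marco and Cd14, was 7.39 in array 23, against 5.82 to 6.29 in the other 10 µM arrays and 6.03 to 6.95 in DMSO. Not every member was raised: Cd14 stood at 9.60 in array 23, within the other 10 µM arrays at 8.75 to 10.11. The mean of 9 endothelial markers was 5.39 in array 23, against 4.60 to 4.90 in the other 10 µM arrays. The 9 hepatocyte markers averaged 11.23 there, the highest of the 10 µM group, which ran from 10.96. The part of these levels in the Cyp1a1 value was not tested. In 100 µM array 15 the macrophage mean was 6.46, against 5.83 to 6.32 in the other 100 µM arrays. DMSO array 21 had a macrophage mean of 6.95 and a Cyp1a1 value of 11.03. Albumin, the main plasma protein of hepatocytes, was between 12.66 and 13.01 in all 15 arrays. The other listed hepatocyte markers ranged more widely, among them Cps1 from 6.50 to 8.73, Hnf4a from 7.43 to 8.92 and Apob from 9.88 to 11.57.

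Cyp1a2, the constitutive enzyme that hydroxylates flutamide, did not pass the test at either dose. Its estimated difference between the number runs was larger than that at either dose, but did not pass either. The run and dose differences were not compared by a test. Cyp1a2 stood at 10.17 and 10.33 in the DMSO arrays of run 1 and at 9.74, 8.96 and 9.61 in those of run 2. At 10 µM it stood at 10.36, 10.10 and 10.96 in run 1 and at 9.92, 10.47 and 9.34 in run 2. At 100 µM it stood at 10.60 and 10.15 in run 1 and at 9.65 and 9.46 in run 2. In DMSO and at 100 µM every run 2 array was below every run 1 array, and at 10 µM the runs overlapped. The separated sets hold only 2 or 3 arrays each, and the share of all genes separated in this way was not counted. Cyp1b1 also separated by run at 100 µM. The log2 difference from DMSO was 0.36 at 10 µM (SE 0.21, 0.940-fold to 1.75-fold, limma adjusted p = 0.744) and 0.13 at 100 µM (SE 0.23, 0.777-fold to 1.54-fold, limma adjusted p = 0.939). At 10 µM it was 0.22 within run 1 and 0.47 within run 2, and at 100 µM it was 0.12 in both. Single arrays moved its size but not its sign: at 10 µM it was 0.21 without array 24, 0.23 without DMSO array 21 and 0.13 without the 3 arrays of lowest weight. At 100 µM it was 0.0017 without DMSO array 21, 0.034 without array 15 and 0.047 without the 3 arrays.

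Between the runs, Cyp1a2 differed by -0.71 (run 2 minus run 1, SE 0.18, 0.612-fold) with an unadjusted p of 0.00137 and a limma adjusted p of 0.101, short of the threshold. That call rests on 1 array: without 10 µM array 24 the difference was -0.82 with a limma adjusted p of 0.0334, while without each of the other arrays it lay between -0.79 and -0.62 and did not pass. Of all genes, 0.545% passed between the runs after adjustment and 11.0% at an unadjusted p under 0.05, where 1.34% had a lower p than Cyp1a2. The difference was -0.56 at 10 µM, -0.81 at 100 µM and -0.81 in DMSO. Of the endothelial markers 0 of 9 passed between the runs after adjustment, but 9 of 9 had higher values in run 2, 5 of them at an unadjusted p under 0.05, with a median of 0.29. Of all genes, 50.8% were higher in run 2 and 4.73% were higher at that p, with a median of 0.00. Their part in the Cyp1a2 difference was not tested. Cyp1a1 differed between the runs by 0.03 (SE 0.34; 0.36 without array 23, SE 0.15, limma adjusted p = 0.387), Cyp1b1 by 0.14 (SE 0.21) and Ahr by -0.20 (SE 0.18), none past the threshold.

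Cyp1b1, the third family member, lay near or below the array medians (5.38 to 5.51) in all arrays but DMSO array 20, and did not pass the test at either dose. It stood at 5.22, 5.00, 6.55, 4.81 and 5.62 in DMSO arrays 10, 11, 20, 21 and 22. At 10 µM it stood at 5.08, 4.68, 5.22, 5.03, 5.23 and 5.13 in arrays 12, 13, 14, 23, 24 and 25, and at 100 µM at 5.55, 5.50, 5.23 and 5.12 in arrays 15, 16, 26 and 27. DMSO array 20 was the highest and stood alone, and 5 of 6 arrays at 10 µM and 4 of 4 at 100 µM lay within the DMSO range. The value 5.22 of DMSO array 10 and of 10 µM array 14 was the same number in the deposited table. The log2 difference was -0.36 at 10 µM (SE 0.24, 0.541-fold to 1.12-fold, limma adjusted p = 0.787) and -0.08 at 100 µM (SE 0.27, 0.635-fold to 1.42-fold, limma adjusted p = 0.972). Without DMSO array 20 it was -0.10 at 10 µM and 0.19 at 100 µM. The 14 stellate cell and fibroblast markers, cells in which Cyp1b1 is known, averaged 5.07 in array 20, inside the DMSO range of 4.99 to 5.16, and the part of such cells in that Cyp1b1 value was not tested.

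**Figure D2:**
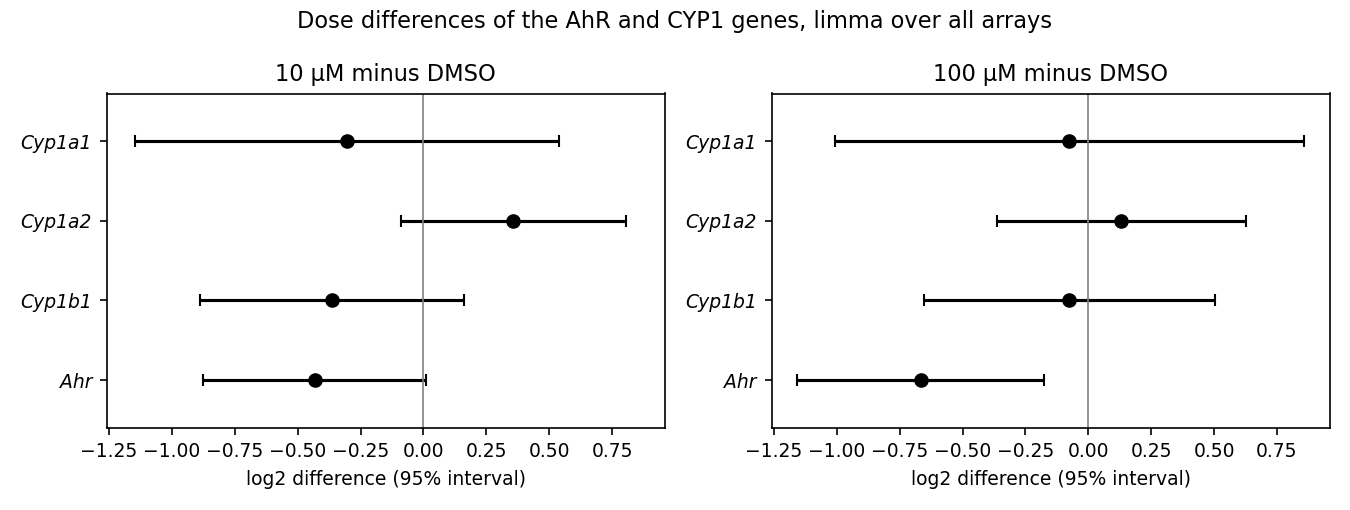
Log2 difference from DMSO (x axis) of the 4 genes (y axis) at 10 µM (left) and 100 µM (right), from limma over all 15 arrays. Points are estimates and bars are 95% intervals, and of the 8 intervals only that of Ahr at 100 µM leaves out 0, before adjustment over all genes.

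Ahr, the receptor, had lower values in most flutamide arrays than in DMSO, but did not pass the test over all genes. It stood at 7.63, 7.37, 7.80, 7.45 and 7.49 in DMSO arrays 10, 11, 20, 21 and 22. At 10 µM it stood at 7.28, 7.19, 7.58, 7.29, 6.46 and 7.02 in arrays 12, 13, 14, 23, 24 and 25, and at 100 µM at 6.40, 7.59, 7.05 and 6.57 in arrays 15, 16, 26 and 27. At 10 µM 5 of 6 arrays, and at 100 µM 3 of 4, lay below the lowest DMSO array, while 10 µM array 14 and 100 µM array 16, both of run 1, lay inside the DMSO range, so the groups overlapped at both doses. Groups that did not overlap, with the treated group lower, were seen for 0.221% of genes at 10 µM and 0.931% at 100 µM. That is a stricter event, which Ahr did not meet. The share of genes with as many treated arrays below DMSO as Ahr was not counted.

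The mean of Ahr was 7.55 ± 0.17 in DMSO (SD, n = 5), 7.14 ± 0.38 at 10 µM (SD, n = 6) and 6.90 ± 0.53 at 100 µM (SD, n = 4). The log2 difference was -0.43 at 10 µM (SE 0.21, 0.741-fold, interval 0.545-fold to 1.01-fold, limma adjusted p = 0.661). At 100 µM it was -0.67 (SE 0.23, 0.630-fold, interval 0.448-fold to 0.886-fold), with an unadjusted p of 0.0114 and a limma adjusted p of 0.658. At 100 µM 1.73% of all genes had a lower p than Ahr. Within run 1 the difference was -0.15 at 10 µM and -0.51 at 100 µM, and within run 2 -0.66 and -0.77. The run 1 value at 100 µM averages arrays 15 (6.40) and 16 (7.59), and array 16 lay above the run 1 DMSO mean of 7.50. The runs' differences were not told apart, with an adjusted interaction p of 0.690 at 10 µM and 0.994 at 100 µM by limma, where 0.0414% and 0.00689% of all genes passed. Both 10 µM array 24 (6.46) and 100 µM array 15 (6.40) had low quality weights, 0.549 and 0.427. Without them and array 23 the difference was -0.37 at 10 µM and -0.46 at 100 µM.

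**Figure D3:**
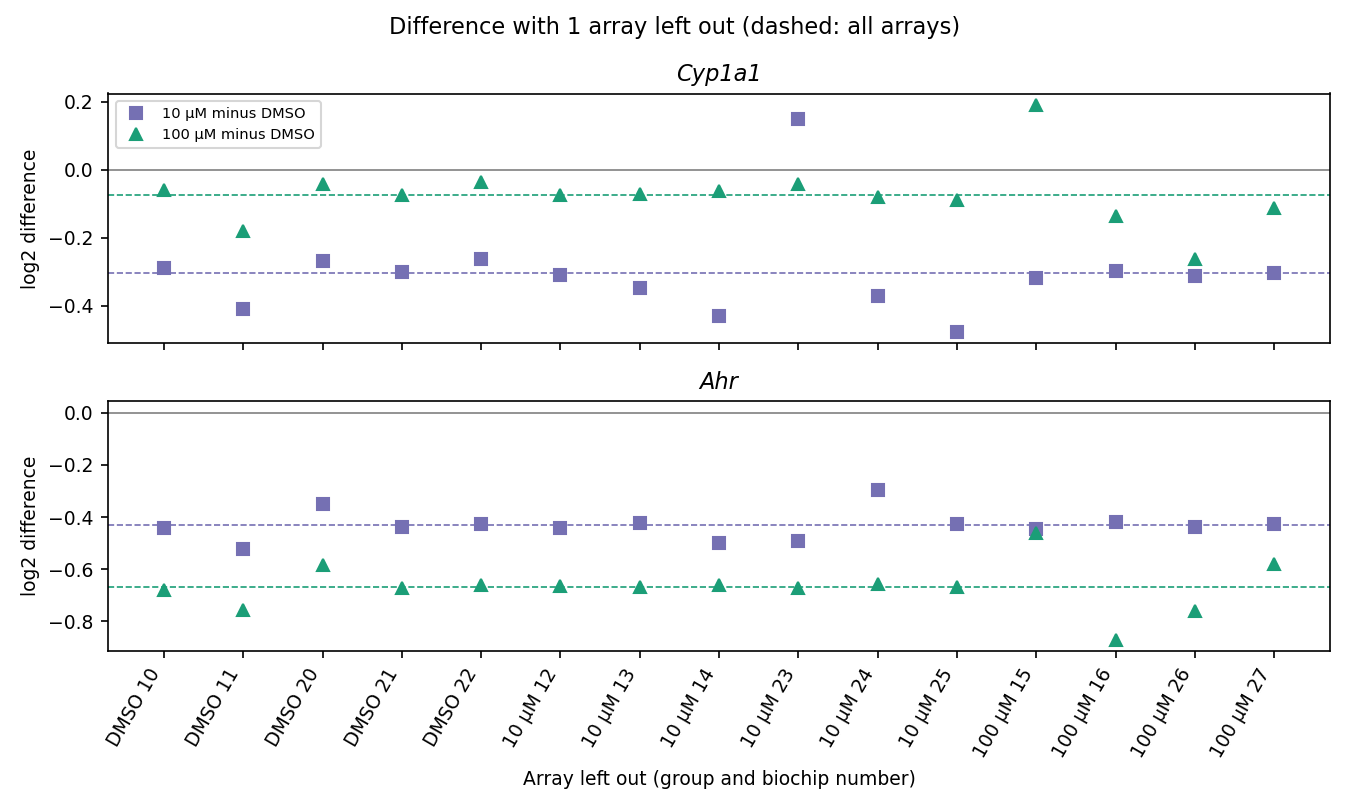
Log2 difference from DMSO (y axis) of Cyp1a1 (top) and Ahr (bottom) with each array left out in turn (x axis), squares for 10 µM and triangles for 100 µM, and dashed lines for all 15 arrays. Cyp1a1 changes sign without 10 µM array 23 or 100 µM array 15, while Ahr stays between -0.52 and -0.29 at 10 µM and between -0.87 and -0.46 at 100 µM.

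Between the doses, 0 of the 4 genes passed (100 µM minus 10 µM, 0% of all genes). The log2 difference was 0.23 for Cyp1a1 (SE 0.42), -0.23 for Cyp1a2 (SE 0.22), 0.29 for Cyp1b1 (SE 0.26) and -0.23 for Ahr (SE 0.22), with limma adjusted p-values of 0.930 to 0.957. The Ahr value depended on single 100 µM arrays, at -0.016 when array 15 was left out and at -0.45 when array 16 was. The Cyp1b1 value was 0.53 within run 1 (unadjusted p = 0.0165, limma adjusted p = 0.653) and 0.045 within run 2. The Cyp1a2 value was -0.089 without 10 µM array 24. For the 3 enzymes as for the receptor, the neighbouring dose groups did not differ beyond their spread.

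The 4 genes varied more than most genes around the fit with group and run terms. That fit has no interaction term, so a dose difference that changes with the run adds to the residual. The ranks below are over genes of all levels, not matched for brightness. The residual SD of Cyp1a1 was 0.73, and 99.3% of genes had a lower one, and for Cyp1a2 (0.38), Cyp1b1 (0.44) and Ahr (0.37) the share was 88.4%, 93.5% and 88.1%, with a median of 0.19 over all genes. Without 10 µM array 23 the residual SD of Cyp1a1 was 0.32, above that of 86.9% of genes. No pair of the 4 genes had a pooled correlation that passed its test: over 15 arrays the 6 pairwise Pearson correlations lay between -0.18 and 0.24, Spearman's rho between -0.40 and 0.41, and the adjusted permutation p was 0.890 for each Pearson value and at least 0.411 for rho. The permutations mixed all arrays without regard to dose group or run. With group and run means removed, r was 0.51 for Cyp1a2 and Cyp1b1, against 0.04 pooled. For the other pairs it then lay between -0.23 and 0.26, and these values were not tested. Cyp1a1 and Ahr, an enzyme and its activator, had a pooled r of 0.14 (rho = 0.25, permutation p = 0.629). It was -0.0032 without arrays 15 and 23, so that the pooled value rests on those arrays. Within run 1 their r was 0.90 (rho = 0.71) over 7 arrays, in which array 15 was lowest in both genes, and within run 2 it was -0.10 (rho = 0.12) over 8 arrays, with no test of either.

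The genes whose pattern was most like each of the 4 were taken by Pearson's r over 15 arrays, on values from which group and run means had been removed. For Cyp1a1 these were Trmt6, Nfu1, Vamp8, Parl and Dync2h1 (r = 0.96 to 0.97), and the most opposite were Pttg1ip and Mep1b (-0.96 each). These rested partly on array 23, since without it r was 0.80, 0.83, 0.79, 0.86 and 0.91, and -0.83 and -0.78. For Ahr they were Nifk, Cd14, Adprm, Sec24a and Lrp6 (r = 0.90 to 0.93), with Or10v9b (-0.90) and Ccdc102a (-0.89) opposite. Cd14, an endotoxin receptor on the macrophage list that hepatocytes also make, stood at 8.75 in array 24, where Ahr was low too. It was picked for its likeness to Ahr, so that this shared low value follows from the choice. For Cyp1a2 they were Khdc3, Ndufa6, Or52u1, Crip1 and Prss45 (r = 0.83 to 0.90), with Mfap3 and Ap1g1 (-0.87 each) opposite. For Cyp1b1 they were Il23a, Itm2a, Dmc1, Prp2l1 and Vars1 (r = 0.83 to 0.86), with Fuom (-0.81) and Msx3 (-0.79) opposite.

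The other proteins of the receptor's pathway were described by count. Of 20 listed, 16 were measured, Ahr included, and 0 passed over all genes. At 10 µM 6 were higher and 10 lower, with a median log2 difference of -0.05 against -0.00 over all genes. That median was 0.07 within run 1, -0.044 within run 2 and 0.0051 without the 3 arrays of lowest weight. At 100 µM 4 were higher and 12 lower, with a median of -0.07 against 0.02. There the median was -0.017 within run 1 and -0.094 within run 2. Of all genes, 50.9% were lower at 10 µM and 44.3% at 100 µM. Arnt, the nuclear partner, was at 0.23 (SE 0.16) and 0.03 (SE 0.18) at 10 and 100 µM. Ahrr, the repressor that AhR itself induces, was at 0.01 (SE 0.10) and -0.04 (SE 0.12). At 100 µM the coactivator Ncoa1 was at -0.41 (SE 0.16, unadjusted p = 0.0197), next to Ahr in p among these proteins. At 10 µM the coactivator Ep300 was at 0.29 (SE 0.09, unadjusted p = 0.00561), and was named for its p after seeing the values. Tiparp, an AhR-induced ADP-ribosyltransferase, was not analysed here.

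Of 30 other genes of the AhR battery, 21 were measured, and 0 passed at either dose. At 10 µM 11 were higher and 10 lower with a median of 0.01, and at 100 µM 11 and 10 with a median of 0.00, in both cases within 0.02 of the median of all genes. Those medians had no stable sign: without the 3 arrays of lowest weight they were -0.019 and -0.032. Nqo1, the quinone reductase that AhR and NRF2 both induce, was bright and averaged 11.90 ± 0.15 in DMSO (n = 5), 11.87 ± 0.55 at 10 µM (n = 6) and 12.08 ± 0.09 at 100 µM (n = 4, SD in each). Its one low value was 10.78, in 10 µM array 23, the array in which Cyp1a1 was low. Aldh3a1, an aldehyde dehydrogenase that AhR ligands induce strongly in rat liver, stayed dim, between 4.38 and 4.67 in DMSO, 4.43 and 5.01 at 10 µM, and 4.57 and 4.69 at 100 µM. Its log2 difference was 0.14 at 10 µM (SE 0.09) and 0.09 at 100 µM (SE 0.10), and 4 arrays held the identical value 4.63. At 100 µM the 2 members of lowest p were Nfe2l2, the NRF2 gene (0.13, SE 0.07, unadjusted p = 0.0771), and Fmo1, a flavin monooxygenase (-0.33, SE 0.18, unadjusted p = 0.0840).

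**Figure D4:**
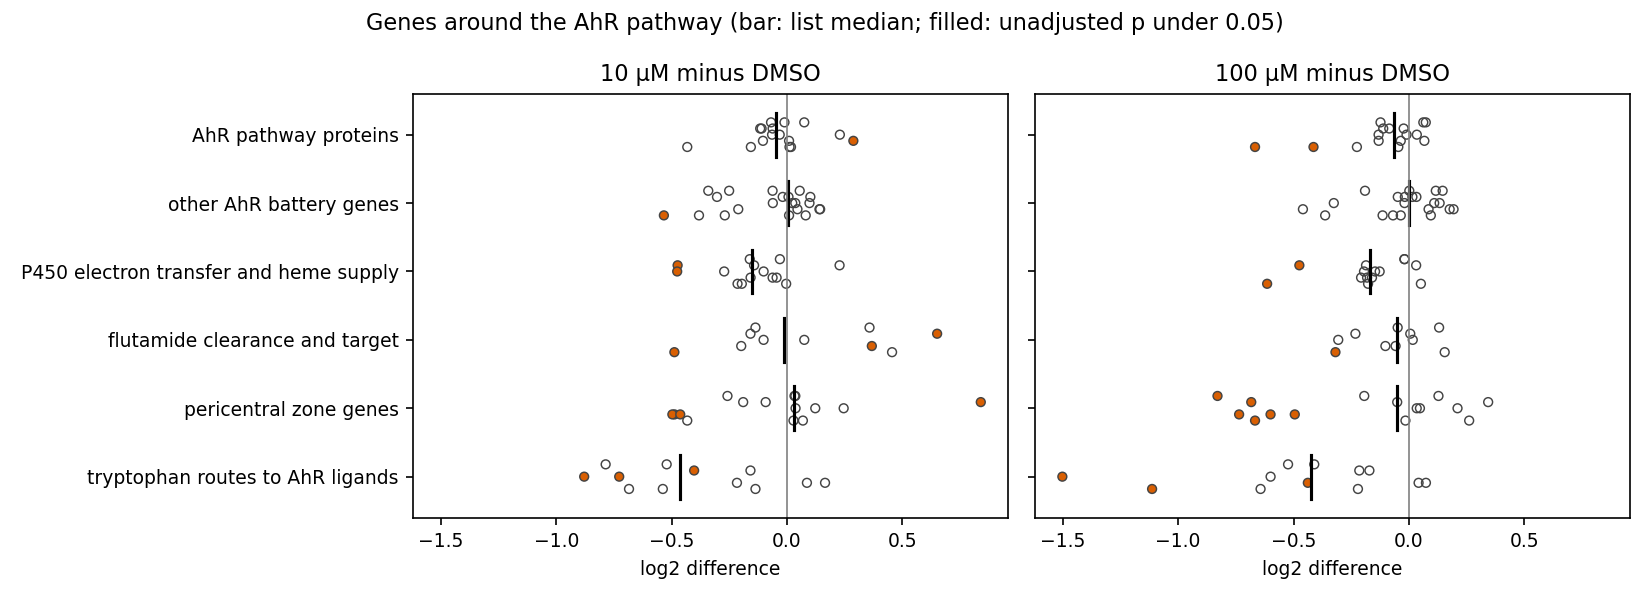
Log2 difference from DMSO (x axis) of each measured gene in 6 lists around the AhR pathway (y axis), at 10 µM (left) and 100 µM (right). Circles are genes, filled where the unadjusted p was under 0.05, and bars are list medians; the AhR battery is centred at 0.01 and 0.00, and the tryptophan list at -0.46 and -0.42.

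The partners that P450 enzymes need were mostly on the lower side. Of 16 genes for electron transfer and heme supply 14 were measured, of which 1 was higher and 13 lower at 10 µM (median -0.15) and 2 higher and 12 lower at 100 µM (median -0.17), against 50.9% and 44.3% of all genes lower. Over all genes 0 passed. Within run 1 the medians were -0.01 and -0.07 and within run 2 -0.24 and -0.16. Cyb5a, the cytochrome b5 that passes electrons to P450 enzymes, was at -0.47 at both doses (SE 0.13 and 0.14, unadjusted p = 0.00223 and 0.00451). It lay between 10.47 and 11.06 in DMSO, between 10.19 and 10.59 at 10 µM and between 10.10 and 10.60 at 100 µM, so that the groups overlapped. The Cyb5a difference was larger in run 2. Its means in DMSO, 10 µM and 100 µM were 10.51, 10.40 and 10.28 in run 1 and 11.00, 10.23 and 10.35 in run 2. Por, the P450 reductase, was at -0.20 at 10 µM (SE 0.24) and -0.61 at 100 µM (SE 0.27, unadjusted p = 0.0385). Its mean in run 1 was 7.98 in DMSO and 7.88 at 100 µM. In run 2 it was 8.60 and 7.56, with DMSO arrays 20 and 21 at 8.83 and 9.05. All 4 arrays at 100 µM, at most 7.90, lay below the DMSO arrays, the lowest of which was 7.91, a gap smaller than the spread within either group. Groups separated in this way at 100 µM were seen for 0.931% of all genes.

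Of 13 genes listed around flutamide clearance, 10 were measured, Cyp1a2 included, and 0 passed. At 10 µM 5 were higher and 5 lower, and at 100 µM 4 were higher and 6 lower. Of all genes, 50.9% were lower at 10 µM and 44.3% at 100 µM. Aadac, the arylacetamide deacetylase that hydrolyses flutamide in human liver, was at -0.49 at 10 µM (SE 0.13) and -0.32 at 100 µM (SE 0.14), on a dim level: the 10 µM arrays lay between 3.11 and 3.47, all below the DMSO arrays at 3.53 to 4.22, while the 100 µM arrays, at 3.09 to 3.76, overlapped with them. Every 10 µM array lay below every DMSO array for 0.221% of all genes. The carboxylesterase gene Ces2c was at -0.31 at 100 µM (SE 0.17). Other genes of the list went up at 10 µM, by up to 0.65. There 2 were higher and 1 lower at an unadjusted limma p under 0.05, as were 555 and 554 of all 14506 genes. The pericentral genes, the zone of the lobule in which Cyp1a2 is highest in liver, had 8 of 15 measured members higher and 7 lower at 10 µM, with a median of 0.03 that turned to -0.018 within run 1, -0.12 within run 2 and -0.13 without the 3 arrays of lowest weight, and 6 higher and 9 lower at 100 µM (median -0.05, and -0.031 within run 1 and -0.24 within run 2). At 100 µM 6 of these 15, Ahr among them, were lower at an unadjusted p under 0.05, where 3.42% of all genes were, and the 2 of lowest p were Rhbg, an ammonium transporter (-0.49, SE 0.14), and Gulo, the last enzyme of vitamin C synthesis (-0.60, SE 0.17).

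The enzymes of tryptophan breakdown, whose products include endogenous AhR ligands, lay lowest of the 6 lists in the median. Of 12 measured 2 were higher and 10 lower at each dose, and 0 passed over all genes. Of all genes, 50.9% were lower at 10 µM and 44.3% at 100 µM. The median of the list was -0.46 at 10 µM and -0.42 at 100 µM, against -0.003 and 0.019 over all genes. At 10 µM the median was 0.00 within run 1 and -0.82 within run 2, and at 100 µM -0.11 and -0.46. Without the 3 arrays of lowest weight it was -0.19 at 10 µM and -0.31 at 100 µM. Kynu, the kynureninase, stood at 5.14, 6.40, 5.97 and 5.63 in the 100 µM arrays against 6.64, 6.85, 7.93, 7.27 and 7.89 in DMSO, with no overlap (-1.50, SE 0.29, limma adjusted p = 0.356). A full separation to the lower side at 100 µM was seen for 0.931% of all genes, and Kynu was named for its low p in this list. Kyat3, a kynurenine aminotransferase, was at -0.44 at 100 µM (SE 0.12, limma adjusted p = 0.628).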

How the data were processed

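The deposited log2 values, 1 per probe set and array, were made by the authors with RMA (a method that usually includes background correction, quantile normalization and probe summary) and Partek, per the submitters' processing notes, which name no version or setting here. Array medians lay between 5.38 and 5.51, and no further normalization was applied in the main analysis. Arrays have no read depth, so their number limits the precision, and no detection value was used. Of 29214 probe sets, 15310 carried a single gene symbol in the platform annotation, and gene identifiers linked 15279 of those to RefSeq (GRCr8) for current symbols. The 323 with several genes and the others without one were left out (13904 in all). Where several probe sets stood for a gene (527 genes), that of highest mean was taken. There were 0 columns of other samples.

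Groups were compared with limma 3.58.1 in R 4.3.3 (lmFit and eBayes) over all 15 arrays, with dose group and number run as terms and Benjamini-Hochberg adjustment over 14506 genes, and a gene was called at an adjusted p under 0.05. The fit was tested on simulated data. Correlations of the 4 genes used 100000 permutations (NumPy and SciPy). Alternatives were no run term, each run alone, array quality weights, renewed quantile normalization, dim genes left out, a trended robust prior, all probe sets, an exact permutation test and each array left out. The 4 genes and the gene lists were chosen with earlier results of these data known. Named genes are the 4, a fixed set (Ahrr, Tiparp, Nqo1, Aldh3a1, Ugt1a6, Arnt, Por and Aadac, of which Tiparp and Ugt1a6 are not analysed here, and others not reported here), the 5 most alike and 2 most opposite to each, and per list up to 3 called members or otherwise the 2 of lowest p at 100 µM. The promoter letters come from RefSeq, which had entries used here for Cyp1a2, Cyp1b1 and Ahr.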

Additional observations from a re-analysis of the deposited data

Results flagged for a closer look

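In 14 of 141 groups of 4 to 6 arrays, over 47 named genes, 1 array stood far from the others by Dixon's criterion; chance gives about 1 in 20. In 8 of the 14 it was 10 µM array 23. There Cyp1a1 was lowest at 8.81, Nqo1 lowest at 10.78 and Por highest at 8.95. The other 5 genes were chosen for their likeness to Cyp1a1, so that their flags follow from that choice: Trmt6 (8.75), Vamp8 (8.70) and Parl (8.77) were lowest, and Pttg1ip (9.96) and Mep1b (3.70) highest. In 10 µM array 24 Ncoa1 (6.62) and Cd14 (8.75) were lowest. Itm2a was lowest in 100 µM array 16 (3.11) and Fuom highest in 100 µM array 26 (5.01). Prp2l1 was highest in DMSO array 20 (5.25) and Or10v9b in DMSO array 10 (3.87). Cd14 and Or10v9b were chosen for their likeness or opposition to Ahr, and Itm2a, Fuom and Prp2l1 for theirs to Cyp1b1. Their flags are not independent of that choice.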

How the results depend on the processing

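The 4 genes gave 12 results over 3 comparisons and 297 alternative values, none of which had an adjusted p under 0.05 by limma (lowest 0.295), and 280 kept direction and side of the threshold. Cyp1a1 changed sign most often. At 10 µM against DMSO it was 0.14 within run 1, 0.12 with array quality weights and 0.20 without the 3 arrays of lowest weight, and -0.48 to 0.15 with 1 array left out. At 100 µM against DMSO it was 0.12 within run 2, 0.092 with weights, 0.16 without the 3 arrays, and -0.26 to 0.19 with 1 array left out. At 100 µM against 10 µM it was -0.36 within run 1, -0.028 with weights, -0.036 without the 3 arrays, and -0.19 to 0.51 with 1 array left out. Cyp1b1 at 100 µM against DMSO was 0.42 within run 1 and -0.25 to 0.19 with 1 array left out. The cause was not tested. By the exact permutation test within runs, judged at an unadjusted p under 0.05, Ahr was at -0.43 at 10 µM (two-sided exact p = 0.035, smallest possible 0.005) and at -0.65 at 100 µM (two-sided exact p = 0.05, smallest possible 0.0167). With dim genes left out Cyp1b1 had no value. Of all genes limma called 0 in each dose comparison, while 1109 (10 µM), 993 (100 µM) and 723 (between doses) had an unadjusted p under 0.05. At 10 µM it called 7 within run 2, 1 with weights, 1 after renewed quantile normalization, and 0 to 1 with 1 array left out, and at 100 µM 1 within run 2. No paired analysis was possible because the groups share no biochip numbers.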
